A study of Mus musculus with 18 samples.

Results

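The insulin-like growth factor (IGF) system was followed in sorted bone and marrow cells through 10 transcripts: the ligands Igf1 and Igf2, the receptor Igf1r, the binding proteins Igfbp2, Igfbp3, Igfbp4, Igfbp5, Igfbp6 and Igfbp7, and the protease Pappa2. The genes were taken by name after gene IDs had been matched to mouse symbols. All 10 were found among 54446 gene IDs, and all 10 were among the 15516 genes that passed a filter on low counts. Pappa2 passed it through the knockout libraries alone, since 7 of 9 knockout libraries and 0 of 9 control libraries reached the count minimum.

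The mice were at postnatal day 21, and the sorted cells descended from cells that had expressed osterix, which marks the osteoblast lineage. Pth1r encodes the receptor for parathyroid hormone and parathyroid hormone-related protein. The 6 groups, of 3 libraries each, were conditional Pth1r knockout and control (labelled wild type) cells of 3 sorted subsets. The marrow subset was GFP-negative, positive for a marker written Tm, and labelled as bone marrow stromal cells. The 2 other subsets were labelled as bone cells, a GFP-positive subset and a subset that was Tm-positive without GFP. The sources used here name osteoprogenitors as the site of the deletion and give neither its driver nor the alleles of the controls, and they do not say whether a library came from 1 animal or a pool, so the p-values measure the spread between these libraries.

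IGF-I and IGF-II signal through the receptor tyrosine kinase encoded by Igf1r. The high-affinity binding proteins carry the ligands, lengthen their lifetime and either limit or aid their access to the receptor. Igfbp7 encodes a related protein of low IGF affinity. PAPP-A2, the product of Pappa2, is a metalloprotease that cleaves IGFBP-3 and IGFBP-5 and so frees bound ligand. In bone, IGF-I promotes growth of the growth plate and the work of osteoblasts, and parathyroid hormone is known to raise its production by osteoblasts.

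The sequences upstream of 4 of the members called between genotypes are printed. Igf1r, Igfbp3 and Igfbp5 were called higher in knockout cells of all 3 subsets, and Igfbp6 was called lower in knockout marrow cells. The limits of these calls are given below. Each sequence is the 250 bases before the RefSeq start site on GRCm38.p6, read 5′ to 3′ on the gene's own strand, in lower case, with any match to a searched motif in capitals.
Igf1r, chr7:67952007-67952256, plus strand: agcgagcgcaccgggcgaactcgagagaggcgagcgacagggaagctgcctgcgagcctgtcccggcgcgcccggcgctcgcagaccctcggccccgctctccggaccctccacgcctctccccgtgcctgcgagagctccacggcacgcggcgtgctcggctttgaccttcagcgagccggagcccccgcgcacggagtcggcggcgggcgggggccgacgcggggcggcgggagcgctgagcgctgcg
Igfbp3, chr11:7213924-7214173, minus strand: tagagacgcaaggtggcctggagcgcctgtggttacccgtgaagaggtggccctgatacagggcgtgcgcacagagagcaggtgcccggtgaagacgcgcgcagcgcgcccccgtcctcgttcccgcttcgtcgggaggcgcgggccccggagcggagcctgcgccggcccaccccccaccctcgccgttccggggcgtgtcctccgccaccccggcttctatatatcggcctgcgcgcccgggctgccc
Igfbp5, chr1:72874866-72875115, minus strand: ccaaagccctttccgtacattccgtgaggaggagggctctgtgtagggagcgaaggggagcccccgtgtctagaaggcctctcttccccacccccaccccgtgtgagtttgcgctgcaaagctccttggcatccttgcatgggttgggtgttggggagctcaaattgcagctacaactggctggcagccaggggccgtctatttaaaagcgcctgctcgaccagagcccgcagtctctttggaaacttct
Igfbp6, chr15:102143936-102144185, plus strand: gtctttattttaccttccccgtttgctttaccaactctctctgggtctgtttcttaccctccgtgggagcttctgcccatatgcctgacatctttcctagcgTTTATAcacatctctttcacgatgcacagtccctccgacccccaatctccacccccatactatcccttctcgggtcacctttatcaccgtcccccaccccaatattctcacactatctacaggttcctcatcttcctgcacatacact

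The motifs searched on both strands of these windows were the cyclic AMP response element TGACGTCA, its shorter core TGACG, which lies inside the full element, and the TATA box TATAAA. Of 32817 RefSeq windows of the same length, 1.55% held the full element, 17.7% the core and 12.4% the TATA box. The 10 members have 14 such windows. Among them the core was found in 1 window of Igf2, and TATAAA was found in Igfbp4, with its first base 28 bases before the start site, and reversed in Igfbp6, where it begins 148 bases before it. The windows of Igf1r, Igfbp3 and Igfbp5 hold none of these letters, which says nothing about the factors that act on them. GC content was 77.6% for Igf1r, 73.2% for Igfbp3, 58.8% for Igfbp5 and 49.6% for Igfbp6.

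Total counts per library ran from 16443595 to 27160257, and 3 counts, the most that a count of 0 allows, stood for 0.0966 to 0.216 CPM (counts scaled to the TMM-adjusted library total). These floors, like the counting intervals given for Pappa2, leave out all error but that of counting, and the sources used here name no molecular identifiers. The knockout and control libraries did not overlap for Pth1r in any subset, and it was counted in all knockout libraries, with log2 fold changes of -0.70, -0.52 and -0.56 in marrow, GFP-positive bone and GFP-negative bone. The summed level of 6 markers of marrow reticular stroma was between 22705 and 44954 CPM in the 6 marrow libraries and at most 4078 CPM in bone libraries. The summed level of 8 osteoblast markers was 54375 to 73827 CPM in knockout and 124825 to 184143 CPM in control marrow libraries, and 7 of the 8 fell there. Of 6 smooth muscle and pericyte markers, 4 fell and 1 rose in knockout marrow, and their sum was 411 to 619 CPM in knockout and 825 to 2717 CPM in control marrow. The part of these shifts in the marrow results was not tested. In the GFP-positive bone libraries, 8 cartilage markers summed to 305372 to 337288 CPM in knockout cells and 106158 to 130077 CPM in control cells, above the osteoblast sum of 48477 to 61901 CPM in knockout and 32609 to 54444 CPM in control cells, so that subset is called by its sort and not by a cell type. Endothelial markers summed to at most 47.1 CPM and blood markers to at most 530 CPM. A single knockout marrow library held 220 CPM of megakaryocyte markers, against at most 4.48 CPM in the other 17 libraries. The sums are given by group and do not name that library. Itgb3, an integrin subunit also found on megakaryocytes but not among the summed markers, points to knockout marrow library 2. It had 75.9 CPM there, against 6.99 CPM in library 1 and 12.8 CPM in library 3. Values that knockout marrow library 3 moves by over 1.5-fold or whose call it decides are given with and without that library. No such rule was used for library 2. Among the marrow libraries Igfbp3 and Igfbp5 were highest in knockout library 2. Their marrow calls held in every fit that left out 1 library. Fold changes between genotypes followed gene length: across 15516 genes their Spearman correlation with merged exon length was 0.37 in marrow, 0.38 in GFP-positive bone and 0.40 in GFP-negative bone, a description across genes that are not independent replicates. A fit that removes this trend in each library is called the length correction, and its values stand beside the results of named genes whose call it changes.

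**Figure D1:**
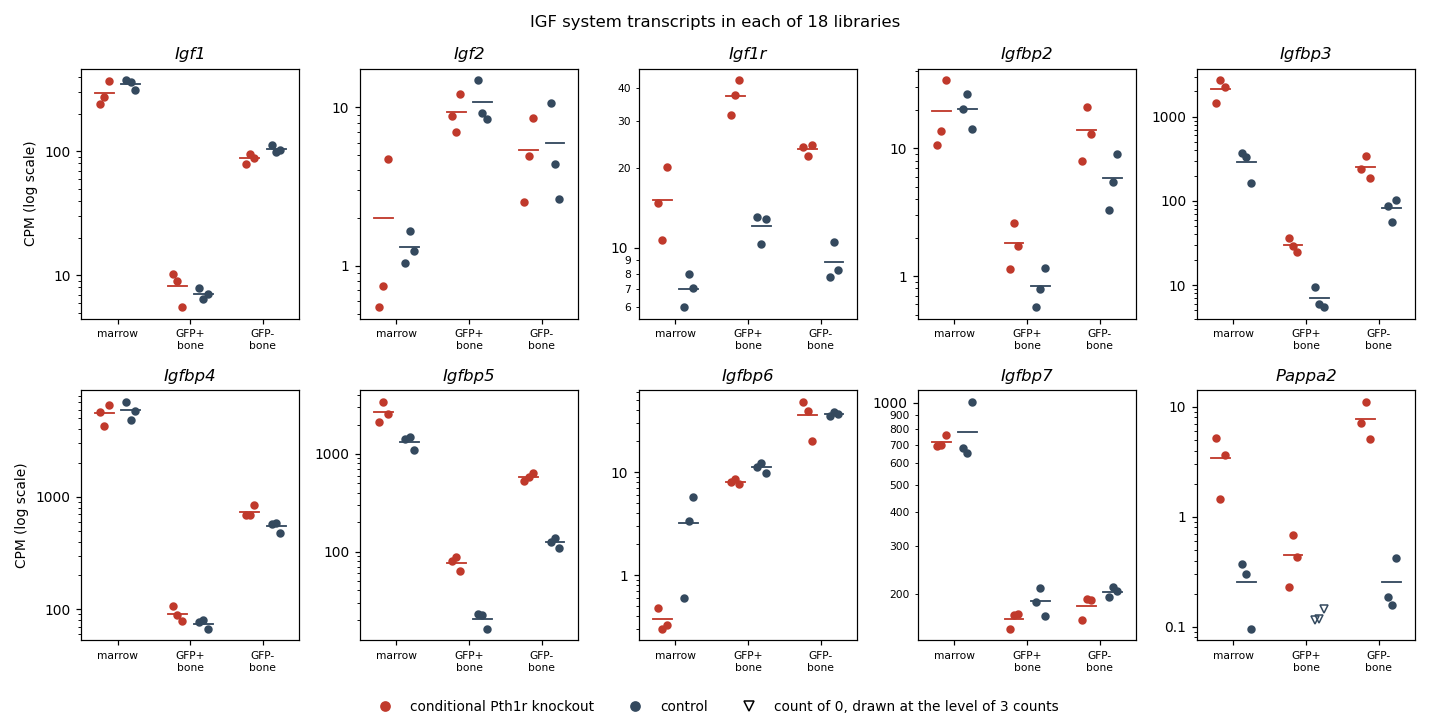
Level of each IGF system transcript in each library, in CPM on a logarithmic axis with its own range in each panel, with knockout libraries left of control libraries in each subset. Points are libraries, short lines are means of 3 libraries, and open triangles are libraries with a count of 0. Knockout libraries of Igf1r, Igfbp3, Igfbp5 and Pappa2 lie above all control libraries of their subset in all 3 subsets.

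Between genotypes, Igf1r, Igfbp3, Igfbp5 and Pappa2 rose and Igfbp6 fell in knockout marrow cells (edgeR quasi-likelihood test, adjusted p under 0.05, n = 3 against 3). In that comparison 23.1% of all genes tested were called higher and 24.8% lower, 47.9% in either direction. Igf1r, Igfbp3, Igfbp5 and Pappa2 were also the members called higher in GFP-positive bone, where 26.0% of genes were called higher and 25.3% lower, 51.3% in either direction. In GFP-negative bone Igf1r, Igfbp3, Igfbp4, Igfbp5 and Pappa2 were called higher, where 21.5% of genes were called higher and 25.7% lower, 47.1% in either direction. In the edgeR fit used for these counts and by DESeq2, no member was called lower in either bone subset. Nor was any at an unadjusted p under 0.05 (0 of 10 in each). Some alternative fits, given below, did call members lower there: Igf1 and Igfbp7 in both bone subsets and Igfbp6 in GFP-positive bone. Pappa2 entered the test through its high knockout libraries, so it had to differ and is left out of the counts: of the other 9 members, 3 were higher and 1 lower in marrow, 3 higher and 0 lower in GFP-positive bone, and 4 higher and 0 lower in GFP-negative bone. Their median log2 fold change was -0.10 in marrow, 0.30 in GFP-positive bone and 0.43 in GFP-negative bone, against -0.04, 0.03 and -0.07 for all genes. Scaling to library totals alone moved the median of all genes by 0.14, -0.38 and -0.24 in the 3 subsets. All of these values are relative to TMM scaling, and in bulk RNA a change in the number of cells of a type and a change in RNA per cell cannot be told apart.

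**Figure D2:**
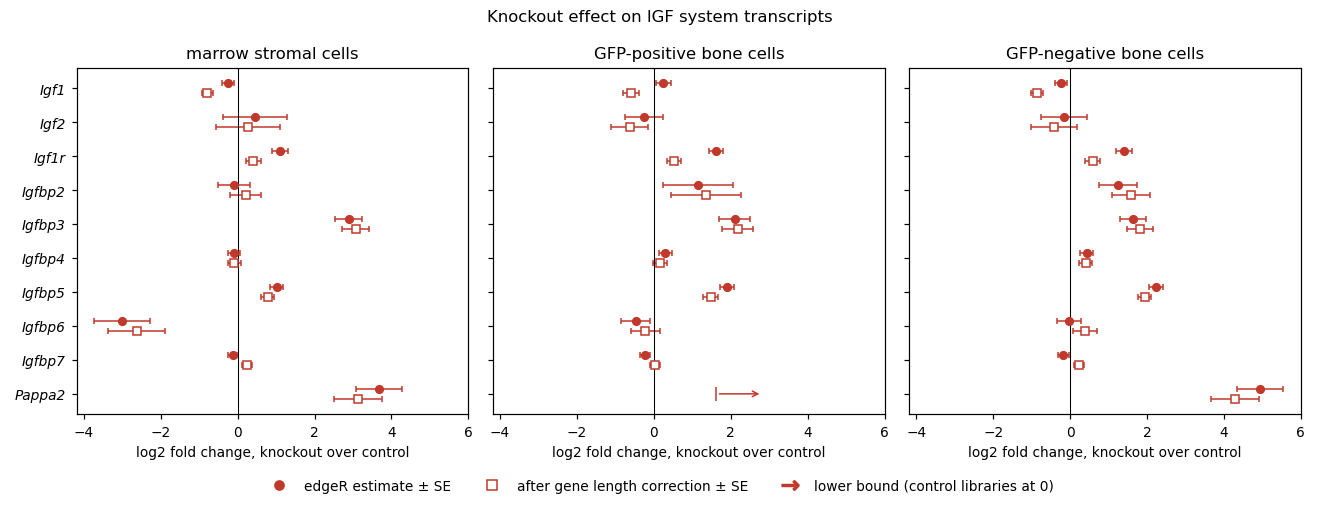
Log2 fold change of each IGF system transcript, knockout over control, in the 3 subsets, with its SE. Filled circles are the edgeR estimates, open squares the estimates after the length correction, and the arrow marks the lower bound of Pappa2 in GFP-positive bone. Igfbp3 and Igfbp5 stay to the right of 0 on both scales, and Igf1r lies nearer to 0 after the correction.

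Igf1 (ENSMUSG00000020053.18; mm10 chromosome 10, 87858265 to 87937042, plus strand, 9904 bases of merged exons) encodes IGF-I. Marrow stromal cells held 242, 275 and 369 CPM in knockout libraries and 377, 365 and 313 CPM in control libraries. GFP-positive bone held 10.3, 9.02 and 5.54 CPM in knockout libraries and 7.87, 6.43 and 7.13 CPM in control libraries, and GFP-negative bone held 79.0, 96.1 and 89.0 CPM in knockout and 112, 98.6 and 102 CPM in control libraries. The genotypes overlapped in marrow and GFP-positive bone, and in GFP-negative bone every knockout library was below every control library. The log2 fold changes were -0.25 ± 0.15, 0.25 ± 0.20 and -0.24 ± 0.15 (± SE) in marrow, GFP-positive bone and GFP-negative bone, and none was called (edgeR adjusted p = 0.179, 0.326 and 0.213). After the length correction the values were -0.79 ± 0.15, -0.59 ± 0.20 and -0.87 ± 0.16, all called and with the direction in GFP-positive bone turned (edgeR adjusted p = 3.71e-04, 0.0227 and 1.86e-04). Without knockout marrow library 3 the marrow value was -0.44 and was called (edgeR adjusted p = 0.0185), and with library totals alone the GFP-negative bone value was -0.48 and was called (edgeR adjusted p = 0.0226).

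Igf2 (ENSMUSG00000048583.16; mm10 chromosome 7, 142650766 to 142666816, minus strand), the imprinted ligand of fetal growth, was low and spread widely between libraries of a group. Marrow libraries held 0.548, 0.747 and 4.75 CPM in knockout cells and 1.05, 1.67 and 1.24 CPM in control cells. Its level was 8.86, 7.03 and 12.1 CPM in knockout and 14.9, 9.16 and 8.47 CPM in control libraries of GFP-positive bone, and 2.53, 4.95 and 8.59 CPM in knockout and 10.7, 4.41 and 2.64 CPM in control libraries of GFP-negative bone. The genotypes overlapped in all 3 subsets and no difference was called, with log2 fold changes of 0.46 ± 0.84, -0.25 ± 0.50 and -0.16 ± 0.60 (edgeR adjusted p = 0.684, 0.702 and 0.851). The highest marrow value came from knockout library 3, and without it the marrow log2 fold change was -1.02, not called. Another annotated gene on the same strand, Gm49394, shares 62.8% of the exon length of Igf2 and has a count of 0 in all libraries, so the level of Igf2 is uncertain.

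Igf1r (ENSMUSG00000005533.10; mm10 chromosome 7, 67952827 to 68233668, plus strand), the receptor for both ligands, was higher in knockout cells of all 3 subsets. Marrow held 14.8, 10.7 and 20.2 CPM in knockout libraries and 5.99, 7.998 and 7.05 CPM in control libraries. GFP-positive bone held 31.6, 37.4 and 42.7 CPM in knockout and 13.1, 10.3 and 12.8 CPM in control libraries, and GFP-negative bone 24.0, 22.1 and 24.4 CPM in knockout and 7.78, 10.5 and 8.27 CPM in control libraries. No subset showed overlap between genotypes. The rise was 2.16-fold in marrow, 3.07-fold in GFP-positive bone and 2.63-fold in GFP-negative bone (log2 1.11 ± 0.20, 1.62 ± 0.19 and 1.40 ± 0.20; edgeR adjusted p = 1.90e-04, 8.94e-07 and 1.62e-05). With 16791 bases, its merged exons are the longest of the 10 members, and the length correction lowered the log2 values to 0.41 ± 0.20, 0.52 ± 0.19 and 0.59 ± 0.20. The call then ended in marrow and held in both bone subsets (edgeR adjusted p = 0.112, 0.0262 and 0.0249).

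Igfbp3 (ENSMUSG00000020427.11; mm10 chromosome 11, 7206086 to 7213923, minus strand) encodes the main IGF carrier of serum. It reached 1453, 2736 and 2245 CPM in knockout marrow libraries, against 371, 334 and 161 CPM in control marrow libraries. In GFP-positive bone it stood at 35.8, 29.4 and 24.8 CPM in knockout and 9.46, 5.999 and 5.44 CPM in control libraries, and in GFP-negative bone at 237, 341 and 187 CPM in knockout and 88.1, 56.8 and 102 CPM in control libraries. Every knockout library lay above every control library of its subset. The rise was 7.42-fold in marrow, 4.29-fold in GFP-positive bone and 3.10-fold in GFP-negative bone (log2 2.89 ± 0.35, 2.10 ± 0.41 and 1.63 ± 0.34; edgeR adjusted p = 1.15e-05, 5.59e-04 and 0.00129). These calls held under all 13 alternatives run in each subset.

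Igfbp5 (ENSMUSG00000026185.8; mm10 chromosome 1, 72857932 to 72874884, minus strand) encodes a binding protein that is abundant in bone matrix. It held 2117, 3427 and 2550 CPM in knockout marrow libraries and 1416, 1502 and 1096 CPM in control marrow libraries. GFP-positive bone held 80.4, 87.2 and 63.5 CPM in knockout and 22.9, 22.5 and 16.1 CPM in control libraries, and GFP-negative bone 523, 582 and 639 CPM in knockout and 125, 138 and 108 CPM in control libraries. The genotypes did not overlap in any subset. The rise was 2.02-fold in marrow, 3.75-fold in GFP-positive bone and 4.69-fold in GFP-negative bone (log2 1.01 ± 0.17, 1.91 ± 0.19 and 2.23 ± 0.18; edgeR adjusted p = 9.24e-05, 1.80e-07 and 3.04e-08), and it held under all 13 alternatives in each subset.

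Markers of marrow reticular stroma, the stromal cells that support blood formation, mostly rose in the subsets where Igfbp3 and Igfbp5 rose. The order of size differed, since Igfbp3 rose most in marrow and the median of the markers least. Igf1, Igfbp2 and Igfbp4, also highest in control marrow, were not called higher in knockout marrow. Of 6 listed markers (Cxcl12, Lepr, Kitl, Adipoq, Ebf3 and Foxc1), 5 rose in knockout marrow, 5 in knockout GFP-positive bone and 6 in knockout GFP-negative bone, and 0 fell by edgeR. In these subsets 23.1%, 26.0% and 21.5% of all genes were called higher. The 6 markers had a median log2 fold change of 1.19, 1.77 and 1.72 there. Their summed level was 37663 to 44954 CPM in knockout and 22705 to 31506 CPM in control marrow libraries. It was 660 to 881 CPM in knockout and 318 to 361 CPM in control GFP-positive bone, and 3763 to 4078 CPM in knockout and 1177 to 1617 CPM in control GFP-negative bone. None of the 6 was at 0 in any group, and their part in the result was not tested.

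Igfbp2 (ENSMUSG00000039323.18; mm10 chromosome 1, 72824503 to 72852474, plus strand) lies 5457 bases from Igfbp5 on the opposite strand. Its marrow level was 10.5, 13.7 and 34.2 CPM in knockout libraries and 20.3, 26.6 and 14.2 CPM in control libraries, with knockout library 3 the highest of all. Without that library the marrow log2 fold change was -0.75, not called (edgeR adjusted p = 0.0932). In GFP-negative bone it was 7.91, 21.0 and 12.8 CPM in knockout and 3.26, 5.46 and 8.93 CPM in control libraries, which overlap, and in GFP-positive bone 1.14, 2.62 and 1.73 CPM in knockout and 0.570, 0.789 and 1.16 CPM in control libraries. On the log2 scale the difference was -0.10 ± 0.41 in marrow, 1.16 ± 0.91 in GFP-positive bone and 1.24 ± 0.50 in GFP-negative bone, and none was called (edgeR adjusted p = 0.868, 0.311 and 0.0519). The GFP-negative bone value was called under 7 of 13 alternatives, among them DESeq2, the length correction and the replicate block (log2 1.35, 1.58 and 1.26), and the GFP-positive bone value by DESeq2 and with the compared libraries only (1.17 in both).

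Igfbp4 (ENSMUSG00000017493.12; mm10 chromosome 11, 99041244 to 99054392, plus strand) encodes a binding protein known mainly as an inhibitor of IGF action. It was the member with the highest count in every marrow library, at 5740, 4249 and 6637 CPM in knockout and 7051, 4827 and 5881 CPM in control cells. In GFP-negative bone it held 684, 685 and 840 CPM in knockout and 570, 590 and 476 CPM in control libraries, with no overlap, and in GFP-positive bone 107, 89.0 and 77.7 CPM in knockout and 76.7, 79.4 and 66.5 CPM in control libraries. Log2 fold changes came to -0.10 ± 0.16 in marrow, 0.30 ± 0.17 in GFP-positive bone and 0.43 ± 0.16 in GFP-negative bone, and the last, a 1.35-fold rise, was called (edgeR adjusted p = 0.661, 0.149 and 0.0355). That call ended with library totals alone (log2 0.18), without a filter on low counts (0.51), after the length correction (0.41), and without control library 1 (0.47), control library 3 (0.34) or knockout library 3 (0.34) of that subset.

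Igfbp6 (ENSMUSG00000023046.6; mm10 chromosome 15, 102144362 to 102149511, plus strand) encodes a binding protein that prefers IGF-II. Its counts in marrow were 15, 8 and 7 in knockout libraries and 16, 78 and 119 in control libraries, which is 0.483, 0.299 and 0.329 CPM in knockout and 0.599, 3.34 and 5.67 CPM in control cells. The groups did not overlap, but the lowest control library exceeded the highest knockout library by 1 count. The fall in knockout marrow was 7.99-fold (log2 -3.00 ± 0.72; edgeR adjusted p = 0.00263), and without control marrow library 3 it was -2.31 (edgeR adjusted p = 0.0166). In GFP-positive bone Igfbp6 held 7.95, 8.49 and 7.63 CPM in knockout and 11.2, 12.3 and 9.87 CPM in control libraries, and in GFP-negative bone 48.3, 38.96 and 20.2 CPM in knockout and 34.9, 38.2 and 37.0 CPM in control libraries. The log2 values there, -0.47 ± 0.37 and -0.03 ± 0.31, were not called (edgeR adjusted p = 0.313 and 0.959), although the GFP-positive bone libraries did not overlap and a fit of those 6 libraries alone called it (-0.46, edgeR adjusted p = 0.0405). Of 7 markers of periosteal fibroblasts and tendon, 5 fell and 0 rose in knockout marrow by edgeR, and their summed level was 735 to 1245 CPM in knockout and 3245 to 5383 CPM in control marrow libraries, with none at 0. In GFP-positive and GFP-negative bone 4 and 4 of these 7 markers fell and 0 rose by edgeR. The part of these markers in the fall of Igfbp6 in marrow was not tested.

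Igfbp7 (ENSMUSG00000036256.13; mm10 chromosome 5, 77349240 to 77408041, minus strand) was not called in any subset. It held 693, 704 and 761 CPM in knockout and 683, 656 and 1011 CPM in control marrow libraries. GFP-positive bone held 148, 167 and 168 CPM in knockout and 187, 211 and 166 CPM in control libraries, and GFP-negative bone 161, 192 and 190 CPM in knockout and 195, 211 and 204 CPM in control libraries. The log2 fold changes, -0.12 ± 0.13, -0.22 ± 0.13 and -0.17 ± 0.13 in marrow, GFP-positive bone and GFP-negative bone, were not called (edgeR adjusted p = 0.470, 0.178 and 0.318). With library totals alone the GFP-positive and GFP-negative bone values, -0.60 and -0.41, were called lower. Its exons share 7.03% of their length with Polr2b on the opposite strand, and the sources used here do not say whether counting used strand.

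Pappa2 (ENSMUSG00000073530.11; mm10 chromosome 1, 158711727 to 158980490, minus strand) was close to the limit of detection in control cells. Marrow held 5.25, 1.46 and 3.62 CPM (163, 39 and 77 counts) in knockout libraries and 0.374, 0.299 and 0.0953 CPM (10, 7 and 2 counts) in control libraries. GFP-negative bone held 7.08, 11.1 and 5.10 CPM (137, 216 and 79 counts) in knockout and 0.188, 0.157 and 0.420 CPM (3, 3 and 7 counts) in control libraries. In both subsets every knockout library lay above every control library. Pappa2 was tested because its knockout libraries passed the filter, so its differences are given as descriptions, with the p that the fit returned: 12.8-fold in marrow (log2 3.68 ± 0.61; edgeR adjusted p = 7.22e-05) and 30.6-fold in GFP-negative bone (log2 4.94 ± 0.60; edgeR adjusted p = 2.70e-06). Without any filter on low counts the log2 values were 3.73 and 5.02 (edgeR adjusted p = 2.03e-05 and 2.75e-07). The ratio of summed counts has a 95% counting interval of 8.29 to 22.2 in marrow and 18.3 to 60.0 in GFP-negative bone, and the length correction gave log2 values of 3.12 and 4.30. In GFP-positive bone the counts were 5, 14 and 6 in knockout libraries and 0 in all 3 control libraries. Against the floor of 3 counts in the shallowest of those control libraries, the knockout mean was at least 3.09-fold higher (edgeR adjusted p = 0.0262). That call ended after the length correction (edgeR adjusted p = 0.0725) and without control library 1, control library 2 or knockout library 2 of that subset (edgeR adjusted p = 0.0574, 0.0560 and 0.0929).

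The size of the knockout effect was then compared between subsets as an interaction term. Igfbp5 rose more in GFP-negative bone than in marrow, by a further 2.32-fold (log2 1.22 ± 0.24; edgeR adjusted p = 0.00387), and more in GFP-positive bone than in marrow, by 1.86-fold (log2 0.90 ± 0.25; edgeR adjusted p = 0.0185). The effect on Igfbp6 was higher in GFP-negative bone than in marrow by log2 2.97 ± 0.80 and in GFP-positive bone than in marrow by log2 2.52 ± 0.85 (edgeR adjusted p = 0.0308 and 0.0477). These 2 genes were the 2 members called in each of these 2 comparisons, both in the higher direction. Between GFP-negative bone and marrow 4.49% of all genes were called higher and 3.31% lower (7.79% in either direction), and between GFP-positive bone and marrow 10.8% higher and 7.60% lower (18.4%). Leaving out 1 library at a time, the Igfbp6 call was lost in 8 of 12 cases between GFP-negative bone and marrow and in 11 of 12 cases between GFP-positive bone and marrow, among them control marrow library 3 (log2 2.28 and 1.83). Igfbp5 kept its call between GFP-negative bone and marrow under all 19 alternatives. Between GFP-positive bone and marrow it lost it with library totals alone (log2 0.38), without the filter on low counts (0.81), after the length correction (0.69), and without control marrow library 2 (0.81) or knockout GFP-positive bone library 2 (0.80). Between GFP-positive and GFP-negative bone 0 of 10 members differed in effect by edgeR, where 4.98% of genes were called higher and 1.11% lower (6.08% in either direction), and 0 did so at an unadjusted p under 0.05 or by DESeq2. There the intervals remained wide for some members, with log2 differences of -0.08 ± 1.12 for Igfbp2, -0.09 ± 0.78 for Igf2 and 0.47 ± 0.53 for Igfbp3. The SE for Pappa2, at 0 counts in control GFP-positive bone, was 2.18. The comparisons against marrow share its libraries, and their values are not independent of each other. Of all genes called, 81.8% were higher between the bone subsets, 57.6% between GFP-negative bone and marrow and 58.7% between GFP-positive bone and marrow, and with library totals alone 62.2%, 10.9% and 13.5%, with shifts of the median of all genes by -0.14, -0.37 and -0.52.

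Control cells of the 3 subsets were also compared. Against control GFP-negative bone cells, 6 members were lower and 0 higher in control GFP-positive bone cells, where 21.8% of genes were called lower and 18.2% higher (40.0% in either direction). The number higher at an unadjusted p under 0.05 was 0, and by DESeq2 it was 1, Igf1r. The falls were 14.6-fold for Igf1, 7.17-fold for Igfbp2, 11.7-fold for Igfbp3, 7.35-fold for Igfbp4, 6.03-fold for Igfbp5 and 3.28-fold for Igfbp6 (edgeR adjusted p between 1.66e-11 and 0.00588). Igf2, Igf1r and Igfbp7 were not called, with log2 values of 0.90 ± 0.53, 0.44 ± 0.21 and -0.11 ± 0.13. Pappa2 was at 0 counts in control GFP-positive bone. Its mean in control GFP-negative bone, from few counts, was 1.77-fold above the highest floor of the control GFP-positive bone libraries. The difference was not called by edgeR (adjusted p = 0.109) but was by DESeq2 (adjusted p = 9.93e-04).

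Against control marrow cells, 6 members were lower in control GFP-negative bone cells and 2 higher, where 18.2% of genes were called lower and 21.1% higher (39.3%). Igf1 was 3.38-fold, Igfbp2 3.46-fold, Igfbp3 3.51-fold, Igfbp4 10.9-fold, Igfbp5 10.8-fold and Igfbp7 3.85-fold lower (edgeR adjusted p between 1.71e-11 and 0.00717). Igfbp6 was 11.96-fold higher (log2 3.58 ± 0.40; edgeR adjusted p = 1.72e-06), and log2 4.27 without control marrow library 3. Igf2 was 4.44-fold higher (log2 2.15 ± 0.72; edgeR adjusted p = 0.0269), a call that ended without the filter on low counts (2.13), and without control marrow library 1 (1.99) or 3 (2.11), or without control GFP-negative bone library 1 (1.44).

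Control GFP-positive bone cells against control marrow cells gave the widest gaps, with 6 members lower and 3 higher, where 33.0% of genes were called lower and 29.8% higher (62.8%). Igfbp4 was 79.7-fold, Igfbp5 65.0-fold, Igf1 49.1-fold, Igfbp3 41.1-fold, Igfbp2 24.8-fold and Igfbp7 4.17-fold lower (edgeR adjusted p between 3.83e-15 and 7.98e-06). Igf2 was 8.30-fold, Igfbp6 3.64-fold and Igf1r 1.72-fold higher (edgeR adjusted p = 6.40e-04, 9.19e-04 and 0.00291), and without control marrow library 3 the log2 value of Igfbp6 was 2.55 in place of 1.86. Pappa2 was at 0 counts in control GFP-positive bone. Its mean in control marrow, from few counts, was 1.77-fold above the highest floor of the control GFP-positive bone libraries. The difference was not called by edgeR (adjusted p = 0.0588) and was called by DESeq2 (adjusted p = 3.83e-04). The 3 comparisons of control subsets share libraries. With library totals alone the median of all genes moved by 0.19 between the bone subsets and by -0.28 between GFP-negative bone and marrow, and 62.2% and 27.6% of calls were then in the higher direction, in place of 45.5% and 53.7%. In order of level, Igf1, Igfbp2, Igfbp3, Igfbp4 and Igfbp5 ran from marrow through GFP-negative bone to GFP-positive bone, and Igf2 ran the other way, with its bone subsets not told apart. Igfbp6 was highest in GFP-negative bone. Igfbp7 was highest in marrow, and its bone subsets did not differ beyond their spread. Igf1r was higher in GFP-positive bone than in marrow, and GFP-negative bone was not told apart from either.

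Levels of different genes were set beside each other per kilobase of merged exons (RPKM, from the same scaled totals). The 6 binding protein transcripts summed to 2995 ± 299 RPKM in knockout and 2317 ± 272 RPKM in control marrow (SD, n = 3), to 185 ± 5.85 in knockout and 188 ± 21.4 in control GFP-positive bone, and to 534 ± 34.0 in knockout and 375 ± 10.9 in control GFP-negative bone. The 2 ligands summed to 30.2 ± 7.08 RPKM in knockout and 35.7 ± 3.42 RPKM in control marrow, and to 2.47 ± 0.29 in knockout and 2.62 ± 0.68 in control GFP-positive bone. In GFP-negative bone they summed to 9.82 ± 1.22 in knockout and 11.6 ± 1.43 in control cells. Igf1 made up 99.0% of the ligand sum in knockout and 99.4% in control marrow, 90.7% in knockout and 91.4% in control GFP-negative bone, and 34.6% in knockout and 28.3% in control GFP-positive bone, so Igf2 was the larger ligand transcript in the GFP-positive bone subset alone. The level of Igf2 is uncertain because of the exon overlap given above, and the ligand sums and shares carry that limit.

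The mix of binding protein transcripts differed between subsets and between genotypes. In marrow Igfbp4 made up 42.0% ± 8.65 of the per-kilobase sum in knockout and 57.6% ± 4.87 in control cells, and Igfbp3 22.7% ± 6.03 in knockout and 4.05% ± 1.69 in control cells. In GFP-positive bone Igfbp7 made up 72.2% ± 3.83 in knockout and 82.5% ± 0.76 in control cells. In GFP-negative bone Igfbp7 made up 27.9% ± 1.25 in knockout and 44.9% ± 1.43 in control cells, and Igfbp5 18.1% ± 1.42 in knockout and 5.5% ± 0.52 in control cells. The libraries of the 2 genotypes did not overlap in any of these 5 shares, which are a selection. Of the shares not listed, that of Igfbp2 overlapped in every subset, and those of Igfbp4 and Igfbp6 overlapped in GFP-negative bone. The remaining ones did not overlap. No rate of such separation over all genes was set beside them. Fold changes followed gene length, as given above, and the shares were not corrected for it. The part of that trend in the shares was not tested. These shares are parts of 1 sum, so a rise of one lowers the others.

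**Figure D3:**
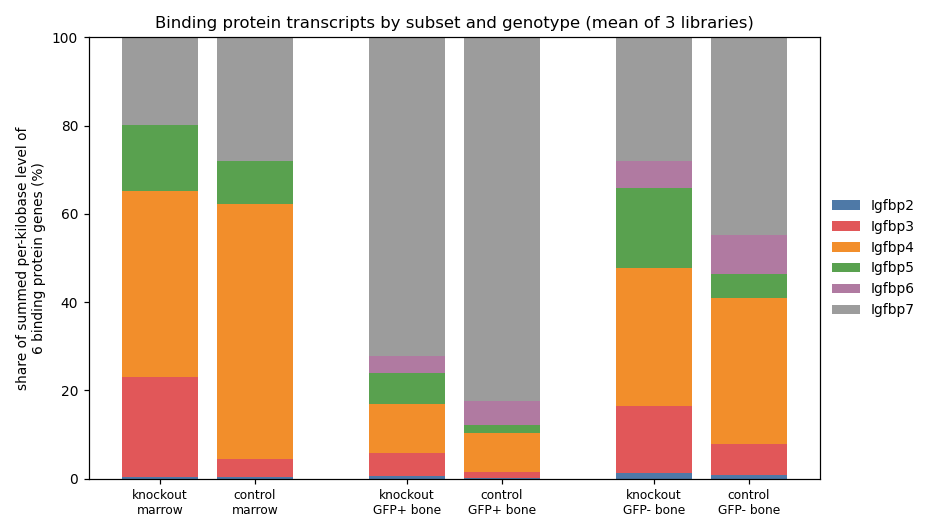
Share of each of 6 binding protein genes in their summed per-kilobase level, in percent, for each subset, with the knockout left of the control. Bars are means of 3 libraries. Igfbp7 takes 72.2% and 82.5% in knockout and control GFP-positive bone, and Igfbp3 takes 22.7% and 4.05% in knockout and control marrow.

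Other genes of the pathway were taken from 5 lists of 43 genes, of which 39 were measured. In knockout cells 22 were higher and 3 lower in marrow, 23 higher and 3 lower in GFP-positive bone, and 21 higher and 5 lower in GFP-negative bone, where 23.1%, 26.0% and 21.5% of all genes were called higher and 24.8%, 25.3% and 25.7% lower. After the length correction the counts were 15 higher and 7 lower, 11 higher and 6 lower, and 11 higher and 8 lower in these subsets, where 19.3%, 17.9% and 16.4% of all genes were called higher and 23.0%, 29.3% and 24.3% lower. The median log2 fold change of the 39 was 0.61, 0.81 and 0.79 before the correction.

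Proteases that cleave binding proteins moved in both directions. Pappa, the relative of Pappa2 that cleaves IGFBP-4 and IGFBP-5, averaged 170 ± 21.9 CPM in knockout and 50.3 ± 4.62 CPM in control marrow (SD, n = 3; log2 1.75 ± 0.15), and 24.7 ± 2.84 CPM in knockout and 5.16 ± 0.87 CPM in control GFP-negative bone (log2 2.27 ± 0.19). Adam12, a metalloprotease that acts on IGFBP-3 and IGFBP-5, rose by log2 1.52 ± 0.13 in marrow, 2.07 ± 0.17 in GFP-positive bone and 1.61 ± 0.14 in GFP-negative bone, and Pappa rose in GFP-positive bone as well (log2 2.57). After the length correction the values were 1.17, 1.67 and 1.59 for Pappa and 0.95, 1.18 and 0.96 for Adam12 in marrow, GFP-positive bone and GFP-negative bone, all still called. The serine protease Htra1 averaged 171 ± 26.4 CPM in knockout and 441 ± 31.9 CPM in control marrow, a fall of 2.58-fold (log2 -1.37 ± 0.11). The uncorrected calls had edgeR adjusted p of at most 1.62e-06. Chosen after their values were seen, Htra1 and Htra3 were lower in both bone subsets, and Stc2, an inhibitor of PAPP-A, was higher in GFP-positive bone and lower in GFP-negative bone. Htra3 in GFP-positive bone (log2 -0.32) lost its call without knockout library 2 of that subset (-0.26). Stc2 in marrow (log2 -0.56) lost its call under 5 of 13 alternatives, among them leaving out knockout marrow library 3 (-0.46), and Prss23 in GFP-negative bone (log2 -0.76) lost it under 8 of 13, among them the length correction (-0.67). Over the 7 genes of that list, 2, 3 and 2 were higher and 2, 2 and 4 lower in marrow, GFP-positive bone and GFP-negative bone, and 2, 3 and 2 higher and 2, 2 and 3 lower after the length correction. Htra1 kept its call in all 3 subsets after that correction.

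The scavenger and signalling receptor Lrp1, which also binds IGFBP-3, averaged 199 ± 13.9 CPM in knockout and 42.7 ± 7.20 CPM in control GFP-positive bone (log2 2.22 ± 0.19; edgeR adjusted p = 4.52e-08), and after the length correction its log2 value was 1.10 and was still called (edgeR adjusted p = 2.88e-05). Of 5 measured receptors and partners, 4, 3 and 3 rose in marrow, GFP-positive bone and GFP-negative bone: Lrp1, Igf2r and Insr in all 3, and Itgb3 in marrow, the last 3 named after their values were seen. With the length correction 2, 2 and 1 were called: Lrp1 in all 3 subsets, Insr in marrow alone (log2 0.96) and Igf2r in GFP-positive bone alone (1.42). The corrected log2 values of Igf2r in marrow and GFP-negative bone were 0.28 and 0.52 and those of Insr in GFP-positive and GFP-negative bone 0.24 and 0.04. Igf2r in marrow, with log2 0.78, also lost its call without knockout library 3 (0.59) or control library 1 (0.56) of marrow, and Insr in GFP-negative bone, with log2 0.79, also with library totals alone (0.55) or without control library 3 (0.59). Itgb3, an integrin subunit also found on megakaryocytes, had 6.99, 75.9 and 12.8 CPM in knockout and 9.88, 7.27 and 11.3 CPM in control marrow libraries. The genotypes overlap, and without knockout library 2 its log2 fold change was 0.03 in place of 1.76. Irs2, an adaptor of the receptor, averaged 439 ± 83.0 CPM in knockout and 92.5 ± 18.3 CPM in control marrow, a rise of 4.75-fold (edgeR adjusted p = 9.44e-09). The docking protein Gab1 averaged 155 ± 14.7 CPM in knockout and 40.2 ± 2.24 CPM in control GFP-positive bone, a rise of 3.87-fold (edgeR adjusted p = 2.94e-09). Of 17 measured signalling genes, 11, 12 and 10 rose in the 3 subsets, and 1 gene fell, the inhibitory adaptor Grb14, in both bone subsets. With the length correction 6, 3 and 3 were higher and 3, 3 and 4 lower. Irs2 in marrow, Gab1 in GFP-positive bone and Grb14 in both bone subsets kept their calls under it. Grb14 averaged 40.5 ± 5.56 CPM in knockout and 94.0 ± 4.58 CPM in control GFP-negative bone.

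Of 6 genes of the growth hormone axis, which drives IGF-I production in many tissues, 3, 4 and 4 rose in knockout marrow, GFP-positive bone and GFP-negative bone and 0 fell by edgeR. After the length correction 3, 2 and 3 were higher and 1 was lower in each subset, the signalling inhibitor Socs2 (log2 -0.95, -0.63 and -0.77; edgeR adjusted p = 0.0028, 0.0303 and 0.0143), which without it had -0.43, 0.18 and -0.16, not called. The kinase Jak2 averaged 89.8 ± 6.88 CPM in knockout and 20.2 ± 4.24 CPM in control GFP-positive bone, a rise of 4.46-fold, and 75.2 ± 10.6 CPM in knockout and 23.8 ± 2.41 CPM in control GFP-negative bone, a rise of 3.16-fold. Chosen after their values were seen, the others were Ghr, the receptor itself, and Stat5b in all 3 subsets, Jak2 in marrow, and Stat5a in both bone subsets. The length correction ended the calls of Ghr in GFP-positive bone (log2 0.09 in place of 0.87) and of Stat5a in GFP-positive and GFP-negative bone (0.21 and 0.32 in place of 0.81 and 0.75). Among 4 genes tied to Igf2, the RNA-binding protein gene Igf2bp2 was higher in all 3 subsets, and Igf2bp1 was higher in marrow and GFP-negative bone. In GFP-negative bone Igf2bp1 averaged 0.990 CPM in knockout and 0.0409 CPM in control cells, the latter under the level of 3 counts. H19, the imprinted neighbour of Igf2, was lower in marrow with log2 -1.59 (edgeR adjusted p = 0.00908). All of these genes were named after their values were seen. Without control marrow library 3 the value for H19 was -0.72 and was not called (edgeR adjusted p = 0.131), nor was it with the compared libraries only (-1.56).

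For each member the genes with the most similar pattern were found by Pearson correlation of log2(CPM + 1) over the 18 libraries, among 9526 genes with a mean of at least 5 CPM. The libraries fall into 6 groups, so that r mostly follows group means and is given as a description. Igfbp5 was most like Lepr (r = 0.99) and Kitl (0.99), both on the marrow reticular stroma list, and Igfbp4 was most like Cxcl14 and Rarres2 (both 0.996). Igf1 was most like Lgals9 and Gsta4 (both 0.99), Igfbp3 like Fbn1 (0.99) and Ism1 (0.98), Igfbp6 like Aspn (0.99) and Ccn3 (0.98), and Igfbp7 like Chst7 and Fam241a (both 0.97). Igf1r was most like Hspg2 and Neo1 (both 0.97) and Igfbp2 like F2r (0.95) and Fmo1 (0.94). On this scale weaker matches were found for Pappa2, with Nedd9 and Ptpn13 (both 0.90), and Igf2, with Unc119b and Amd1 (both 0.88). With log2(CPM + 0.1) the closest genes were Ptpn13 (0.95) and Pkd2 (0.94) for Pappa2, and Mindy4 and Pabpc1 (both 0.88) for Igf2. A match also changed for Igfbp2 (Cp), Igfbp4 (Ggt5) and Igfbp6 (Cpxm2).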

How the data were processed

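RNA-seq libraries had been made with SMART-Seq v4 low-input chemistry, per the labels' protocols. The authors deposited unnormalized counts of reads for each gene, with gene positions and merged exon lengths. STAR, featureCounts, DESeq2 and mm10 appear in the submitters' processing notes without versions, and no source used here gives the handling of strand or of reads with several matches. All 18 libraries (16443595 to 27160257 counts) were fitted in 1 model of 6 group means with edgeR 4.0.16 in R 4.3.3: filterByExpr (minimum count 10, total 15; 15516 genes kept), TMM scaling, robust quasi-likelihood F-test, 12 residual degrees of freedom. Tests are two-sided, Benjamini-Hochberg adjusted over all genes, called under 0.05. The SE was approximated from the log2 fold change and its F value (absolute change over root F). Alternatives were library totals alone, DESeq2 1.42.0, no filter, a length correction (natural spline, 4 degrees of freedom, of log2 merged exon length in each library), a replicate block, the compared libraries only, and each library left out. The members, lists and naming rule (all members; per knockout comparison the 4 pathway genes with the smallest p; the 2 most similar genes, without predicted, Rik, pseudogene and mitochondrial names) were chosen with earlier results of these data known. Coordinates follow the files (mm10), and sequences are from RefSeq (GRCm38.p6).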

Additional observations from a re-analysis of the deposited data

Results flagged for a closer look

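The knockout effect differed between subsets for Igfbp5 and Igfbp6 by the interaction test. For Igfbp5 the log2 difference in effect was 1.22 between GFP-negative bone and marrow and 0.90 between GFP-positive bone and marrow (edgeR adjusted p = 0.00387 and 0.0185). For Igfbp6 it was 2.97 between GFP-negative bone and marrow and 2.52 between GFP-positive bone and marrow (edgeR adjusted p = 0.0308 and 0.0477). The marrow libraries are shared by both comparisons. As given above, the Igfbp6 calls were lost in most fits that left out a single library. The Igfbp5 call between GFP-positive bone and marrow was lost under several alternatives. With groups of 3 libraries, no test for a single outlying library was made.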

How the results depend on the processing

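Of 90 member values (10 members in 9 comparisons), 67 kept their direction, if called, and their side of 0.05 under every alternative run for them. Over 1346 alternative values 47 lost a call, 32 gained one and 2 turned round. The 2 that turned are Igf1 in GFP-positive bone after the length correction (-0.59), alone and with the replicate block (-0.59). The counts of 4 members or more stayed within 1.5 times. Between GFP-negative bone and marrow the 2 members that differed in knockout effect became 1 without the filter on low counts and 1 with the compared libraries only, and 1 to 2 with a library left out. Between GFP-positive bone and marrow they became 1 with library totals alone, 0 without the filter and 0 after the length correction, and 0 to 2 with a library left out. The cause was not tested. The count of 39 pathway genes called in GFP-positive bone was 26, and 17 after the length correction.

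Scaling moved the balance of calls over all genes: the share called higher was 48.2% in marrow, 50.7% in GFP-positive bone and 45.6% in GFP-negative bone, and with library totals alone 59.6%, 30.9% and 30.8%. After the length correction it was 38.0% in GFP-positive bone. For the difference in knockout effect between the bone subsets, 81.8% of calls were higher, against 61.4% by DESeq2 and 55.2% after the length correction. After that correction the share was 36.7% in place of 58.7% between GFP-positive bone and marrow, and 60.9% in place of 45.5% between the control bone subsets. Same-number libraries of knockout and control cells had correlated deviations of -0.06 to 0.08 on edgeR's log scale and -0.09 to 0.17 on log2(CPM + 1), where 1 marrow pair was over 0.1. In marrow 5 of 6 libraries correlated best with their own number on the edgeR scale and 3 of 6 on the other. No subset had every pair of knockout and control libraries over 0.1, so no pairing of genotypes was assumed. Between control subsets these correlations ran from 0.03 to 0.12 on edgeR's log scale and from 0.07 to 0.18 on log2(CPM + 1), between knockout subsets from 0.10 to 0.21 and from 0.13 to 0.30, and on both scales all 6 libraries of a comparison correlated best with their own number, a hint from the data and not from the design. All 3 pairs were over 0.1 on both scales between knockout GFP-negative bone and knockout GFP-positive bone, and between knockout GFP-negative bone and knockout marrow. The tests between subsets given above nevertheless took libraries as independent. With the replicate block 0 calls were lost, and those of Igfbp2 in GFP-negative bone (1.26) and of Igf2 between control GFP-positive and GFP-negative bone were gained. Igfbp6 in marrow and Pappa2 in control cells rest on few counts.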
